A study of Mus musculus with 10 samples.

Results

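The BMP-SMAD-Id axis was followed through the mRNA levels of 10 genes, chosen by name, out of the 21853 protein-coding genes listed for mouse embryonic stem cells (ESCs). The genes were the ligand Bmp4, the receptors Bmpr1a and Bmpr2, the signal-carrying Smads Smad1 and Smad5, the inhibitory Smad6, and the target genes Id1, Id2, Id3 and Id4. The study compared 5 lines with 2 libraries of each. Naïve ESCs were the wild-type line J1, kept on gelatin in serum medium (15% FBS) with mLIF (1000 U/ml), the MEK inhibitor PD0325901 (1 µM) and the GSK3 inhibitor CHIR99021 (3 µM). AKO (labelled AMPK KO), GKO (GYS1 KO, without glycogen synthase) and DKO (AMPK, GYS1 KO) were made from J1 and grown in the same medium. Primed ESCs (PJ1, wild type) were kept on Matrigel with 20% KnockOut Serum Replacement, bFgf (10 ng/ml) and Activin (20 ng/ml), and had neither mLIF nor the inhibitors, so that state and medium cannot be told apart. AKO was described as pooled clones sorted for the red reporter that the knockout inserted, and GKO as single clones. The labels do not say which clones or cultures stand behind the libraries, so that p-values measure only the spread between these libraries, which may be technical.

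Bone morphogenetic proteins (BMPs) are secreted ligands of the TGF-β family. They bring together type I receptors such as Bmpr1a and the type II receptor Bmpr2, and the type I receptor then phosphorylates Smad1, Smad5 and Smad9. These enter the nucleus with Smad4 and switch on target genes, among them the Id genes and the inhibitors Smad6 and Smad7, which dampen the pathway. Id proteins lack a DNA-binding region and hold the E proteins (Tcf3, Tcf4, Tcf12) in complexes that cannot bind DNA. In mouse ESCs, BMP or serum is known to act with LIF through Id genes to hold back neural differentiation. All values below are mRNA levels, and phosphorylated Smads were not measured in these libraries.

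By the GENCODE annotation of GRCm39, Bmp4 lies on chromosome 14, bases 46620250 to 46636745, and Bmpr1a on the same chromosome, bases 34132687 to 34225379. Id2 lies on chromosome 12, bases 25143798 to 25147282, Id3 on chromosome 4, bases 135870808 to 135873066, and Id1 on chromosome 2, bases 152566218 to 152579544. Smad6 is on chromosome 9, bases 63860341 to 63929793. Smad5 (bases 56850797 to 56890190) and Id4 (bases 48414558 to 48419502) are both on chromosome 13, Smad1 is on chromosome 8, bases 80065023 to 80126168, and Bmpr2 on chromosome 1, bases 59802544 to 59918173.

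RefSeq promoter windows of an older build, GRCm38.p6, were at hand for 9 of the 10 genes, 11 windows in all, with no entry for Id1. They reach from 250 bases before the transcription start to 50 bases after it. Below, the 250 bases before the start are shown for Id2 and Id3, whose mRNA fell in both lines without Gys1, and for Bmpr1a and Smad6, whose mRNA rose in both, with positions of that build that do not match the GRCm39 positions above. Capitals mark the letters GGCGCC, a GC-rich word known from Smad1 and Smad5 binding regions, and CAGAC or its reverse complement GTCTG, the word that Smad proteins can bind.
Id2, chr12:25096093-25096342, minus strand: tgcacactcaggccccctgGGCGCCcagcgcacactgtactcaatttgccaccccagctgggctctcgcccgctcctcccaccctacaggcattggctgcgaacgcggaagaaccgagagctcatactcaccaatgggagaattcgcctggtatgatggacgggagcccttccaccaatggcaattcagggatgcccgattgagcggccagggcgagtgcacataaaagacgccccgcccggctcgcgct
Id3, chr4:136143572-136143821, plus strand: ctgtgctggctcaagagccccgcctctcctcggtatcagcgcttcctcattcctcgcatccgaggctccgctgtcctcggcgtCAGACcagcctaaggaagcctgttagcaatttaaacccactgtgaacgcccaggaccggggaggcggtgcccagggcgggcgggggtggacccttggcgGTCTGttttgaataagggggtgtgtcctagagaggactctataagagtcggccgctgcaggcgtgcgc
Bmpr1a, chr14:34502547-34502796, minus strand: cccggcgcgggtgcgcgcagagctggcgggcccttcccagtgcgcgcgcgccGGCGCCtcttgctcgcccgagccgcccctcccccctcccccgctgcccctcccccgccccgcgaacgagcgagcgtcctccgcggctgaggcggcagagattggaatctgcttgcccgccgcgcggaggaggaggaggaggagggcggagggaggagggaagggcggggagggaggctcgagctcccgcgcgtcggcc
Smad6, chr9:64022060-64022309, minus strand: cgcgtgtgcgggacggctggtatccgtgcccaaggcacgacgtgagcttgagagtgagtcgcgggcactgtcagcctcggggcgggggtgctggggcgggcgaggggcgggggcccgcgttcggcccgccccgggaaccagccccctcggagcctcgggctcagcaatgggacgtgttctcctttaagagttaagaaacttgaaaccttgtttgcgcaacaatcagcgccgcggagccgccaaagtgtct
Id2 and Bmpr1a each held GGCGCC once, 231 and 198 bases before the start. Id3 held CAGAC 167 bases and GTCTG 68 bases before the start. The 250 bases before Smad6 held neither word. Over the whole windows, GGCGCC was in 6 of the 11 windows of these genes (5 sites in 5 genes, since 1 site of Smad5 lies in 2 overlapping windows) and in 11.9% of all 32851 windows, and CAGAC in 2 of the 11 and in 49.6% of all, both strands searched. The windows of these genes were rich in G and C, from 59.3% to 79.3%, against a median of 52.7% over all windows, and GGCGCC is itself made of G and C. A match is a description of the letters and not a binding site.

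Levels are given as TPM, a relative measure of transcripts that corrects for their length. Sequencing depth is not known from TPM, and the listed genes summed to between 500162 and 578952 TPM per library. Prkaa1, the AMPK subunit targeted in AKO, stood at 15.5 and 16.6 TPM in naïve ESCs, 7.24 and 6.94 in AKO, 2.30 and 2.04 in DKO and 12.2 and 11.96 in GKO. Only this subunit was targeted, and part of its mRNA stayed in AKO and less of it in DKO. Prkaa2, the other catalytic subunit, was not targeted, and its mRNA was higher in GKO than in naïve ESCs (limma adjusted p under 0.05). The comparison of DKO with AKO thus also differs in Prkaa1, and so does that of GKO with naïve ESCs, with less of it in GKO. Cells said below to lack AMPK are those labelled AMPK KO. Gys1 mRNA held 11.5 and 10.8 TPM in naïve ESCs, against 9.70 and 9.98 in GKO, and since the line carries an indel and not a deletion, the mRNA level does not check its label. The 12 naïve pluripotency markers (Nanog, Esrrb, Klf4 and others) summed to between 1830 and 1861 TPM in naïve ESCs and to between 176 and 184 TPM in primed ESCs. The 2 primed libraries stood apart from each other. Primed replicate 1 held more Fgf5 (10.7 against 0.447 TPM), Cer1 (9.80 against 0.484) and T (8.97 against 0.786), and their median difference between replicates, 0.127 on the log2 scale, was above the 0.0555 to 0.0704 of the other lines.

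Differences were tested with limma on log2(TPM + 1) in 1 fit of the 5 lines, over the 12060 genes that reached 1 TPM in 2 or more libraries, and a gene was called at a Benjamini-Hochberg adjusted p under 0.05. All 10 genes were tested, and Smad6 passed the filter only through DKO, GKO and primed ESCs (6 libraries), the lines in which it was then called higher, so that its call there was favoured by the filter. Bmp4 passed through the 4 lines other than primed ESCs. Differences on this scale understate the change of low genes such as Smad6 and Id4.

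**Figure D1:**
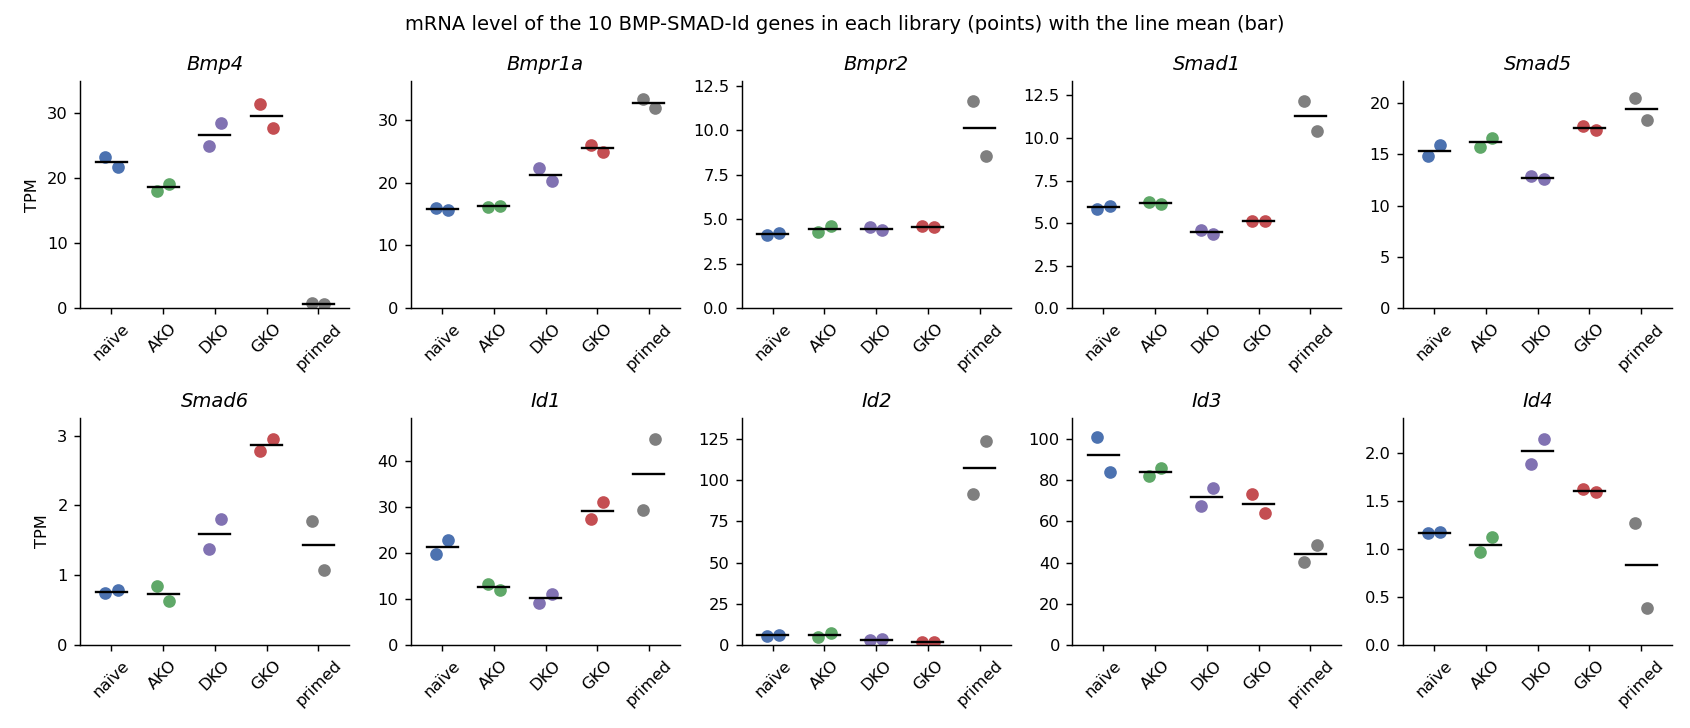
Level of each of the 10 genes (vertical axes, TPM, each from 0) in the 2 libraries (points) of the 5 lines, with the line mean as a bar. Bmp4 was nearly absent from primed ESCs at 0.817 and 0.621 TPM, Id2 was far higher there at 91.3 and 124 TPM, and Smad6 was highest in GKO at 2.79 and 2.96 TPM.

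Bmp4, the ligand of the axis, was expressed in every line grown with mLIF and the inhibitors and was close to absent in primed ESCs. Its level was 23.3 and 21.7 TPM in naïve ESCs, 18.0 and 19.1 in AKO, 24.96 and 28.4 in DKO and 31.4 and 27.7 in GKO, against 0.817 and 0.621 in primed ESCs. The libraries of GKO and DKO overlapped each other and lay above those of naïve ESCs, while both AKO libraries lay below them. Bmp4 rose in GKO by 0.38 ± 0.091 (log2 difference ± SE, adjusted p = 0.00800). The differences in DKO (0.23, 95% interval 0.03 to 0.44, adjusted p = 0.0640) and AKO (-0.26, interval -0.47 to -0.06, adjusted p = 0.353) were not called. DKO was above AKO, by 0.50 ± 0.091 (adjusted p = 0.00219). In primed ESCs Bmp4 fell by 3.77 ± 0.091 on the same scale (adjusted p = 1.34e-09), and the mean TPM was 0.032 of the naïve level. In the order AKO, naïve, DKO and GKO, no neighbouring lines were called apart. In bulk libraries, fewer cells with a transcript and less of it per cell cannot be told apart. The GKO call was lost without naïve replicate 2 (0.33, adjusted p = 0.0600) or GKO replicate 1 (0.29, adjusted p = 0.0698), and DKO against naïve was called without DKO replicate 1 (0.32, adjusted p = 0.0497) and without primed replicate 1 or 2 (0.0386 and 0.0385). It was also called under quantile normalization (0.0382), an equal sum over the listed genes (0.0224), with only the lines compared (0.0370) and without both primed libraries (0.0330).

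Bmpr1a, the type I receptor that BMP4 uses, rose from naïve ESCs through DKO and GKO to primed ESCs. It measured 16.0 and 15.7 TPM in naïve ESCs, 16.1 and 16.3 in AKO, 22.3 and 20.2 in DKO, 26.0 and 24.8 in GKO, against 33.2 and 31.9 in primed ESCs. No 2 lines overlapped, and each step of this order was called except that from naïve ESCs to AKO (0.03, 95% interval -0.10 to 0.17). Against naïve ESCs the rise was 0.40 ± 0.058 in DKO (adjusted p = 0.000646), 0.65 ± 0.058 in GKO (adjusted p = 3.85e-05) and 1.00 ± 0.058 in primed ESCs (adjusted p = 3.33e-07). GKO exceeded DKO by 0.25 ± 0.058 (adjusted p = 0.00801), a call lost without DKO replicate 2 (0.18, adjusted p = 0.0612) or GKO replicate 1 (0.22, adjusted p = 0.0603).

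Both Bmp4 and Bmpr1a lie on chromosome 14, whose genes moved together in the same lines. The median log2 difference of the 394 tested genes of chromosome 14, minus that of all other genes, was 0.49 in GKO, 0.38 in DKO, 0.60 in primed ESCs and -0.003 in AKO, each against naïve ESCs. Between GKO and DKO it was 0.11, and between DKO and AKO 0.39. For GKO minus naïve against DKO minus AKO, a comparison given below, it was 0.10. The GKO difference of Bmp4 (0.38) was below the shift of its chromosome and that of Bmpr1a (0.65) above it. The part of the chromosome in these differences was not tested.

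Bmpr2, the type II receptor, was low and within a narrow range in the 4 lines grown with mLIF and the inhibitors. It was between 4.11 and 4.62 TPM in their 8 libraries, and at 11.7 and 8.57 TPM in primed ESCs. The difference from naïve ESCs was 0.07 in AKO (95% interval -0.19 to 0.34), 0.08 in DKO (-0.18 to 0.35) and 0.11 in GKO (-0.16 to 0.38), and none was called. In primed ESCs Bmpr2 rose by 1.09 ± 0.117 (adjusted p = 2.15e-05).

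Smad1 and Smad5, the transcription factors that BMP receptors phosphorylate, were both lower in DKO than in naïve ESCs and higher in primed ESCs. Smad1 stood at 5.86 and 5.995 TPM in naïve ESCs, 6.25 and 6.11 in AKO, 4.63 and 4.39 in DKO, 5.12 and 5.15 in GKO, against 12.2 and 10.4 in primed ESCs. Smad5 measured 14.9 and 15.9 TPM in naïve ESCs, 15.7 and 16.6 in AKO, 12.9 and 12.6 in DKO, 17.8 and 17.3 in GKO, against 20.5 and 18.4 in primed ESCs. The DKO libraries were thus the lowest of all for both genes, and in GKO only Smad5 lay above naïve ESCs.

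In DKO, Smad1 fell by 0.33 ± 0.080 (adjusted p = 0.00876) and Smad5 fell by 0.25 ± 0.066 (adjusted p = 0.0126). In primed ESCs Smad1 rose by 0.82 ± 0.080 (adjusted p = 1.02e-05) and Smad5 by 0.32 ± 0.066 (adjusted p = 0.00158). The genes of chromosome 8, where Smad1 lies, were 0.11 above the rest in primed ESCs. In GKO, Smad5 differed by 0.18 ± 0.066 (adjusted p = 0.0462) and Smad1 by -0.17 (95% interval -0.36 to 0.01, adjusted p = 0.0972). GKO exceeded DKO in Smad5 by 0.43 ± 0.066 (adjusted p = 0.000941), which was called in all 20 alternatives, while Smad1 was not called between them (0.16, interval -0.02 to 0.34). The GKO call of Smad5 was lost when any 1 library of naïve ESCs, AKO, DKO or GKO was left out (adjusted p up to 0.238), and with all libraries under no filter (0.0571) or no intensity trend (0.0536). That of Smad1 was gained without either primed library (adjusted p = 0.0341 and 0.0334). The DKO calls were lost without naïve replicate 2 (Smad1 adjusted p = 0.0538, Smad5 0.0945) or DKO replicate 2 (0.0554 and 0.0657), and that of Smad5 also under an equal sum over the listed genes (-0.19, adjusted p = 0.0675).

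Smad9, the third Smad of this class, was lower in every line that lacked Gys1 and in primed ESCs. It stood at 2.50 and 2.29 TPM in naïve ESCs, 0.611 and 0.476 in DKO, 0.516 and 0.468 in GKO, against 0.042 and 0.032 in primed ESCs. Smad9 passed the filter only through naïve ESCs and AKO, where it was high. The fall was close in size in both lines without Gys1, with -1.19 ± 0.079 for GKO (adjusted p = 9.31e-06) and -1.14 ± 0.079 for DKO (adjusted p = 1.52e-05). Summed over Smad1, Smad5 and Smad9, the level was 23.2 and 24.2 TPM in naïve ESCs, 24.7 and 25.7 in AKO, 18.1 and 17.5 in DKO, 23.4 and 23.0 in GKO, against 32.8 and 28.8 in primed ESCs. By this sum DKO was the lowest line, and GKO overlapped naïve ESCs.

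Smad6, which blocks the receptor-activated Smads, was low everywhere and highest in GKO. It measured 0.742 and 0.783 TPM in naïve ESCs, 0.843 and 0.625 in AKO, 1.37 and 1.81 in DKO, 2.79 and 2.96 in GKO, against 1.77 and 1.08 in primed ESCs. Both GKO libraries were above all others, and the DKO and primed libraries overlapped. The rise of Smad6 over naïve ESCs was 1.13 ± 0.141 for GKO (adjusted p = 0.000217), 0.55 ± 0.141 for DKO (adjusted p = 0.0115) and 0.45 ± 0.141 for primed ESCs (adjusted p = 0.0160). GKO exceeded DKO by 0.58 ± 0.141 (adjusted p = 0.00985).

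The GKO rise of Smad6 was called in all 19 alternatives, the others not. The DKO call was lost without naïve replicate 1 (adjusted p = 0.0600) or DKO replicate 2 (0.0877). The primed call was lost under quantile normalization (0.14, adjusted p = 0.362), without naïve replicate 1 or 2 (0.0666 and 0.0512) and without primed replicate 1 (0.24, adjusted p = 0.0909). GKO against DKO was lost without DKO replicate 1 (adjusted p = 0.0736) or GKO replicate 2 (0.0573).

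Smad7, the other inhibitory Smad, was the more abundant one outside primed ESCs. It stood at 34.9 and 32.0 TPM in naïve ESCs, 42.6 and 37.9 in GKO, 45.2 and 40.4 in DKO, and 2.26 and 0.896 in primed ESCs. Smad7 was not called in GKO (0.26 ± 0.201, adjusted p = 0.308) or DKO (0.35 ± 0.201, adjusted p = 0.191), and in primed ESCs it fell by 3.79 ± 0.201 (adjusted p = 1.79e-07).

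Id3 was the most abundant Id gene in the 4 lines grown with mLIF and the inhibitors, and Id2 in primed ESCs. Id3 measured 101 and 83.7 TPM in naïve ESCs, 82.1 and 85.8 in AKO, 67.2 and 76.0 in DKO, 73.1 and 64.0 in GKO, against 40.1 and 48.3 in primed ESCs. The AKO libraries overlapped naïve ESCs, the GKO and DKO libraries lay below both and overlapped each other, and the primed libraries lay below all. From naïve ESCs, Id3 fell by 0.42 ± 0.115 in GKO (adjusted p = 0.0143), in DKO it fell by 0.36 ± 0.115 (adjusted p = 0.0313) and in primed ESCs it fell by 1.05 ± 0.115 (adjusted p = 2.56e-05). GKO and DKO were not called apart (-0.06, 95% interval -0.32 to 0.20), nor AKO and naïve ESCs (-0.13, interval -0.39 to 0.13). Without naïve replicate 1, the higher of its pair, the DKO difference was -0.23 (adjusted p = 0.214) and the GKO difference -0.29 (adjusted p = 0.112). The DKO call was also lost without DKO replicate 1 (adjusted p = 0.178), and the GKO call without GKO replicate 2 (0.102). Under an equal sum over the listed genes neither was called (adjusted p = 0.0621 and 0.0505), and the DKO call was lost too under quantile normalization (-0.27, adjusted p = 0.0878) and with no filter (0.0682).

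Id2 fell in GKO and DKO and rose in primed ESCs. It stood at 5.68 and 6.19 TPM in naïve ESCs, 5.16 and 7.03 in AKO, 3.06 and 3.42 in DKO, 1.61 and 1.78 in GKO, against 91.3 and 124 in primed ESCs. AKO overlapped naïve ESCs, DKO lay below them and GKO below DKO. Id2 fell by 1.36 ± 0.156 in GKO (adjusted p = 0.000139), in DKO it fell by 0.71 ± 0.156 (adjusted p = 0.00553), and in primed ESCs it rose by 3.95 ± 0.156 (adjusted p = 2.63e-08), where the mean TPM was 18.1 times that of naïve ESCs. GKO was below DKO by a log2 difference of -0.65 ± 0.156 (adjusted p = 0.00927). This last call was lost without DKO replicate 2 (-0.59, adjusted p = 0.0615) or GKO replicate 1 (-0.61, adjusted p = 0.0581), while both falls from naïve ESCs were called in all 20 alternatives. The genes of chromosome 12, where Id2 lies, were 0.16 above the rest in AKO, 0.15 in DKO, 0.03 in GKO and 0.24 in primed ESCs, each against naïve ESCs. Between GKO and DKO the value was -0.12.

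Id1 was lower in DKO than in both naïve ESCs and GKO, and higher in primed ESCs. It measured 19.8 and 22.8 TPM in naïve ESCs, 13.3 and 11.9 in AKO, 9.11 and 11.2 in DKO, 27.4 and 31.1 in GKO, against 29.4 and 44.8 in primed ESCs. The 4 libraries of AKO and DKO lay below naïve ESCs, and those of GKO and primed ESCs lay above them. No neighbours in the order DKO, AKO, naïve, GKO and primed ESCs were called apart. Id1 fell by 1.00 ± 0.177 in DKO (adjusted p = 0.00179) and rose by 0.75 ± 0.177 in primed ESCs (adjusted p = 0.00360). GKO exceeded DKO by 1.44 ± 0.177 (adjusted p = 0.000297), and this was called in all 20 alternatives. DKO and AKO were not called apart (-0.29, 95% interval -0.69 to 0.11).

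Against naïve ESCs, Id1 was not called in AKO (-0.71, 95% interval -1.11 to -0.31, adjusted p = 0.186) or in GKO (0.44, interval 0.04 to 0.84, adjusted p = 0.0646). GKO was called under an equal sum over the listed genes (0.56, adjusted p = 0.0228) and with only the lines compared (0.00584). In a fit without the primed libraries its SE was 0.108 in place of 0.177, and both differences were called, AKO with an adjusted p of 0.0284 and GKO with 0.00778. Leaving out primed replicate 1 or primed replicate 2 alone gave an adjusted p of 0.0333 and 0.0334 in AKO, and of 0.00864 and 0.00874 in GKO.

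Id4 was low everywhere, between 0.387 and 2.14 TPM. It stood at 1.16 and 1.18 TPM in naïve ESCs, 0.964 and 1.12 in AKO, 1.89 and 2.14 in DKO, 1.63 and 1.59 in GKO, against 1.27 and 0.387 in primed ESCs. DKO and GKO lay above naïve ESCs and AKO, and the primed pair lay on both sides of them. DKO exceeded AKO by 0.56 ± 0.188 (adjusted p = 0.0360), which was lost when any 1 library of naïve ESCs, AKO, DKO or GKO was left out (adjusted p up to 0.155), with a pseudocount of 0.1 (0.0880) and with no filter (0.0757). Against naïve ESCs it was called in none of the lines in the fit of all 10 libraries, with 0.47 in DKO (95% interval 0.05 to 0.90), 0.27 in GKO (interval -0.16 to 0.69) and -0.29 in primed ESCs (interval -0.71 to 0.14). Without the primed libraries, DKO (adjusted p = 0.000675) and GKO (0.0114) were called, as they were with only the lines compared (0.00321 and 0.0118). Without primed replicate 1 the primed difference was -0.64 and was called (adjusted p = 0.000135), and without primed replicate 2 it was 0.069. Under quantile normalization the primed difference was called (-0.50, adjusted p = 0.0135), and under an equal sum over the listed genes the DKO difference (0.51, adjusted p = 0.0489).

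As a pool, Id mRNA was mostly Id3 in the 4 lines grown with mLIF and the inhibitors, and mostly Id2 in primed ESCs. Id1 to Id4 summed to 128 and 114 TPM in naïve ESCs, 101 and 106 in AKO, 81.3 and 92.7 in DKO, 103.8 and 98.5 in GKO, against 162 and 217 in primed ESCs. Id3 made up 79.1% and 73.5% of this sum in naïve ESCs, 82.7% and 81.9% in DKO, 70.5% and 65.0% in GKO, against 24.7% and 22.2% in primed ESCs. The Id1 share was 15.5% and 20.0% in naïve ESCs, 11.2% and 12.1% in DKO and 26.4% and 31.6% in GKO. In AKO the Id3 share was 80.9% and 81.0%, and the Id1 share 13.1% and 11.3%. Id2 rose from 4.45% and 5.43% of the pool in naïve ESCs to 56.3% and 57.0% in primed ESCs, and was at 1.56% and 1.81% in GKO.

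The E proteins that Id proteins bind changed as well. Tcf4 was lower in GKO (-0.80 ± 0.088, adjusted p = 0.000113) and DKO (-0.59 ± 0.088, adjusted p = 0.000689), and Tcf12 was higher in GKO (0.70 ± 0.119, adjusted p = 0.00128). Tcf3, the most abundant of the group, was lower in DKO (-0.37 ± 0.055, adjusted p = 0.000768) and in GKO (-0.23 ± 0.055, adjusted p = 0.00709), the latter not under quantile normalization (adjusted p = 0.117) or an equal sum over the listed genes (0.123). In summed TPM, Id1 to Id4 over the E proteins was 1.58 and 1.44 in naïve ESCs, 1.23 and 1.303 in AKO, 1.35 and 1.51 in DKO, 1.59 and 1.46 in GKO, against 1.38 and 2.00 in primed ESCs. GKO, DKO and primed ESCs overlapped naïve ESCs in this ratio, and both AKO libraries lay below them.

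**Figure D2:**
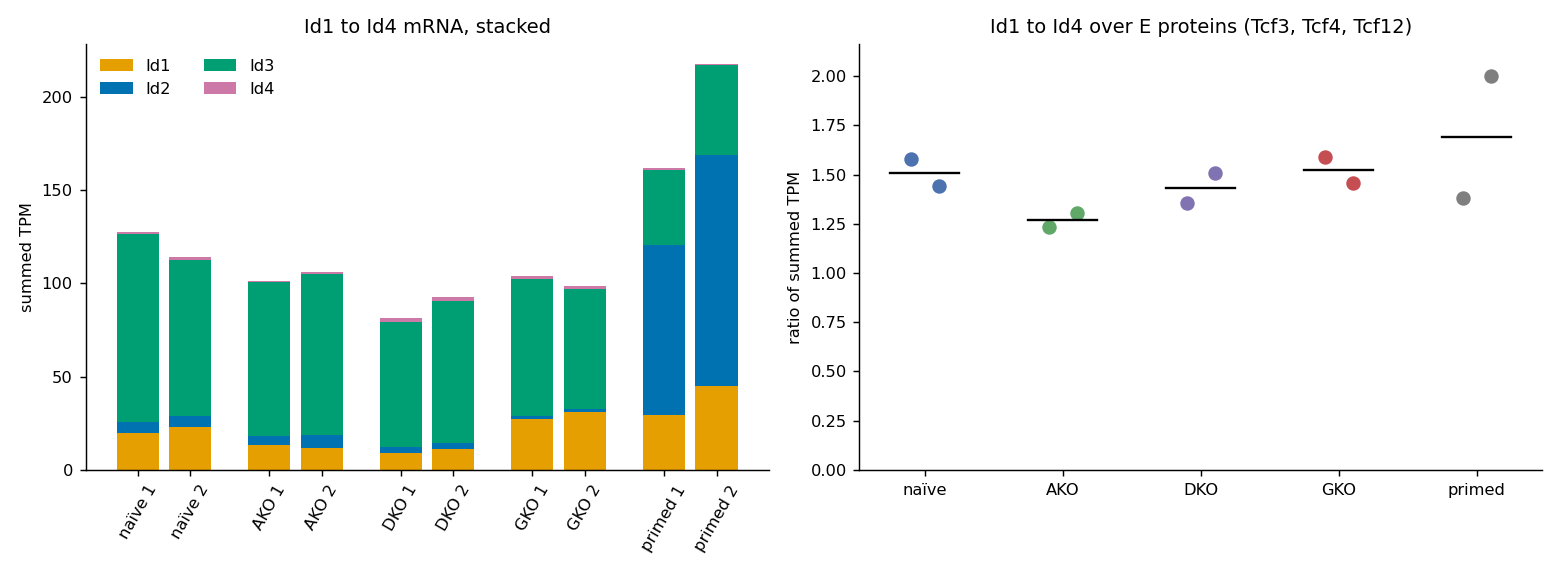
Left, summed level of Id1 to Id4 in each library (vertical axis, TPM), stacked by gene. Right, that sum over the sum of the E proteins Tcf3, Tcf4 and Tcf12 (vertical axis, ratio from 0), with libraries as points and line means as bars. Id3 fills most of the bars outside primed ESCs, where Id2 made up 56.3% and 57.0%, and the ratio lay between 1.23 and 2.00 in all libraries.

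Counted over the 10 genes, AKO had no call against naïve ESCs, and the lines without Gys1, GKO and DKO, had several in both directions. GKO and DKO also differed from naïve ESCs over whole chromosomes. The median difference, minus that of all other genes, was 0.49 and 0.38 for chromosome 14 and -0.40 and -0.26 for chromosome 19. Primed ESCs had 0.60 and -0.41 for these 2 chromosomes, and AKO had 0.16 for chromosome 12. Which part of the calls goes with the knockout and which with other differences between the lines was not tested. In AKO against naïve ESCs 0 of the 10 genes were called, against 0.224% of all tested genes (0.0663% higher and 0.158% lower), with 2 of the 10 (Bmp4 and Id1) and 1231 of all genes at an unadjusted p under 0.05. In DKO 7 were called against 46.0% of all genes, 2 as higher (Bmpr1a and Smad6, against 21.7%) and 5 as lower (Smad1, Smad5, Id1, Id2 and Id3, against 24.3%). In GKO 6 were called against 51.7% of all genes, 4 as higher (Bmp4, Bmpr1a, Smad5 and Smad6, against 24.7%) and 2 as lower (Id2 and Id3, against 27.1%). In primed ESCs 9 were called against 80.0% of all genes, 7 as higher (both receptors, the Smads, Id1 and Id2, against 37.4%) and 2 as lower (Bmp4 and Id3, against 42.5%). The split depended on the scaling. In DKO it was 4 higher and 3 lower with an equal sum over the listed genes and 3 and 4 under quantile normalization. In GKO it was 5 and 1 with the equal sum, and in primed ESCs 6 and 3 under quantile normalization.

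The median difference of the 10 genes was -0.002 in AKO, -0.08 in DKO, 0.22 in GKO and 0.60 in primed ESCs, beside -0.006, -0.008, -0.01 and -0.05 for all tested genes. Beside such shares of all genes, the numbers called in DKO, GKO and primed ESCs are no result particular to these 10 genes. Bmpr1a, Smad6, Id2 and Id3 were called in the same direction in GKO and DKO, and Smad5 in opposite directions, comparisons that share the naïve libraries. Leaving out DKO replicate 2 left 4 calls in DKO. In a fit without the primed libraries, 1 gene was called in AKO (Id1, against 1.21% of all genes), 9 in DKO (55.0%) and 9 in GKO (60.7%), with 6 between GKO and DKO (53.6%) and 7 between DKO and AKO (55.4%). Of the pairs of lines that bear only on the order of levels, GKO against AKO had 6 calls (52.4% of all genes), GKO against primed ESCs 8 (77.1%), and DKO and AKO against primed ESCs 9 each (78.6% and 79.8%).

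**Figure D3:**
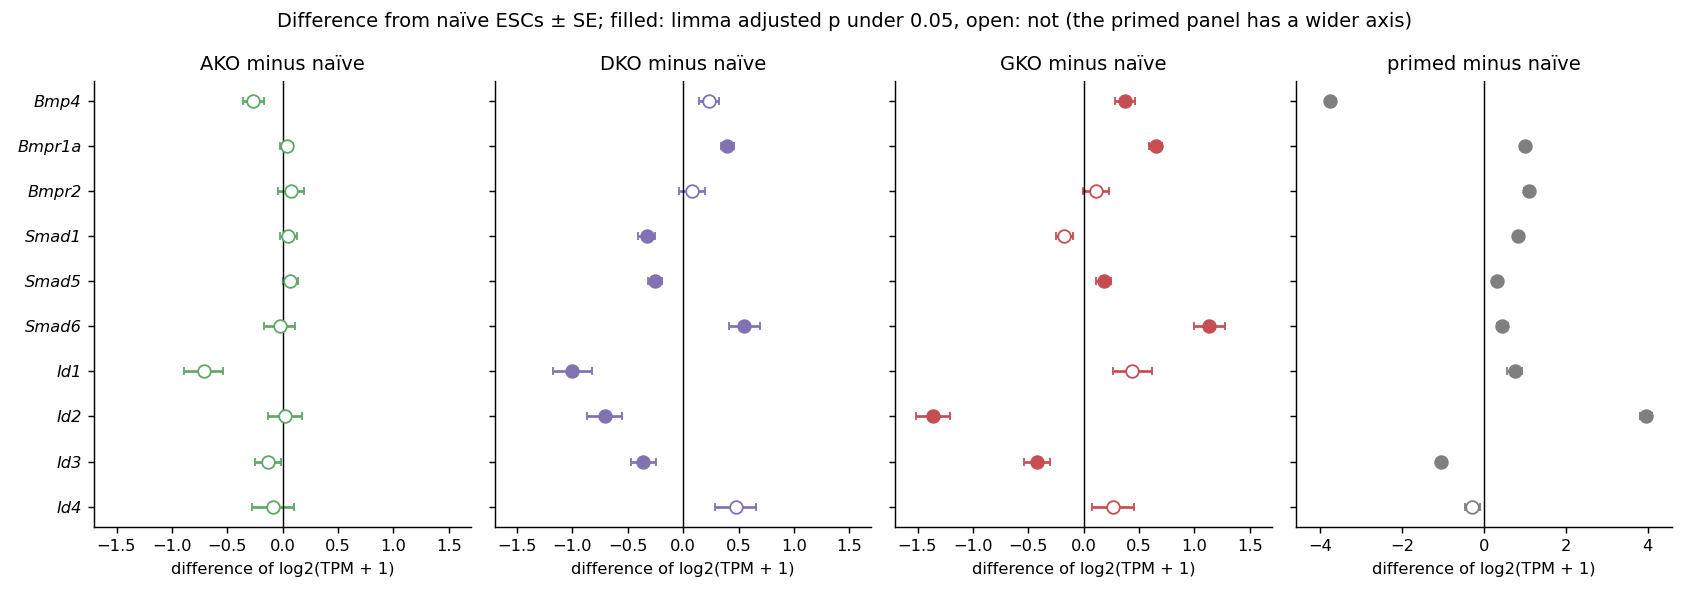
Difference of each of the 10 genes from naïve ESCs (horizontal axes, log2(TPM + 1), with a wider axis for primed ESCs) with its SE from limma. Filled points have an adjusted p under 0.05. AKO has 0 filled points, DKO 7, GKO 6 and primed ESCs 9, and Id1 lies left of 0 in AKO and DKO and right of it in GKO and primed ESCs.

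Between GKO and DKO, lines without Gys1 that differ in their AMPK label, 5 of the 10 genes were called against 43.5% of all genes. Higher in GKO were 4, Bmpr1a, Smad5, Smad6 and Id1 (21.2% of all genes), and lower 1, Id2 (22.4%), with the values given above. Leaving out DKO replicate 2 or GKO replicate 1 left 3 of these calls. Between DKO and AKO, lines labelled AMPK KO that differ in Gys1, 7 were called against 46.3% of all genes. Higher in DKO were 4 (Bmp4, Bmpr1a, Smad6 and Id4, against 22.4%), and lower 3 (Smad1, Smad5 and Id2, against 23.9%). Smad1 fell by 0.38 ± 0.080 (adjusted p = 0.00422), Smad5 fell by 0.32 ± 0.066 (adjusted p = 0.00387) and Id2 fell by 0.73 ± 0.156 (adjusted p = 0.00473), while Smad6 rose by 0.58 ± 0.141 (adjusted p = 0.00926) and Bmpr1a by 0.37 ± 0.058 (adjusted p = 0.00103). The Smad6 call was lost without AKO replicate 2 (0.49, adjusted p = 0.0682) or DKO replicate 2 (0.45, adjusted p = 0.0736).

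The difference between lines without and with Gys1 was compared with and without AMPK, as GKO minus naïve against DKO minus AKO. Of the 10 genes 2 were called, against 25.8% of all genes (12.8% with a positive and 13.1% with a negative difference). Smad5 differed by 0.50 ± 0.093 (adjusted p = 0.00532) and was called in all 20 alternatives. It rose from naïve ESCs to GKO and fell from AKO to DKO, and the lines of each of these pairs also differ in Prkaa1 mRNA. Bmpr1a differed by 0.29 ± 0.082 (adjusted p = 0.0333), which was lost when either library of naïve ESCs, AKO or GKO or DKO replicate 2 was left out (adjusted p from 0.0584 to 0.113). Id1 (0.73 ± 0.250, adjusted p = 0.0631), Id2 (-0.63 ± 0.220, adjusted p = 0.0667) and Smad6 (0.56 ± 0.200, adjusted p = 0.0716) were not called. Without the primed libraries 6 were called against 37.4% of all genes, the further ones being Id1 (adjusted p = 0.00707), Id2 (0.0215), Smad6 (0.0139) and Id4 (0.0487), and each primed library left out alone also gave 6. Id2 was also called without AKO replicate 2 (-0.82, adjusted p = 0.0361).

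The other genes of the pathway were described from lists of ligands, receptors, Smads and their regulators, antagonists, targets and E proteins. In AKO 0 of the 39 tested genes of these lists were called, against 0.224% of all tested genes, so that few calls could arise in any list. The counts below are descriptions, since 51.7% of all genes were called in GKO, 46.0% in DKO and 80.0% in primed ESCs, and since several genes passed the filter only through the lines in which they were high. Among the 13 other ligands, 3 passed the filter. Bmp7 rose from 0.709 and 0.791 TPM in naïve ESCs to 3.11 and 2.99 TPM in GKO (1.21 ± 0.080, adjusted p = 8.70e-06), with 1.53 and 1.29 TPM for DKO (0.46 ± 0.080, adjusted p = 0.00162). Bmp7 passed the filter only through DKO and GKO, the lines in which it was called. Gdf6 was listed at 0.024 TPM or less in all lines but primed ESCs, where it was at 9.91 and 6.999, and Bmp8a fell there by 1.10 ± 0.102 (adjusted p = 7.53e-06). Gdf6 passed the filter only through primed ESCs and Bmp8a only through the 4 other lines, so that the filter favoured these differences.

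Of the 9 tested receptors and co-receptors, 4 rose in GKO (against 51.7% of all genes called), 5 rose and 1 fell in DKO (46.0%), and 8 rose and 1 fell in primed ESCs (80.0%). Among these, Bmpr1b passed the filter only through primed ESCs, and Tgfbr3 and Hfe2 only through DKO, GKO and primed ESCs. Eng passed only through the 4 lines other than primed ESCs. Eng, an accessory receptor of the TGF-β family, measured 9.87 and 9.88 TPM in naïve ESCs, 22.0 and 24.1 in DKO and 16.0 and 15.3 in GKO, and it was close to absent in primed ESCs (0.251 and 0.151). Tgfbr3, a co-receptor, was higher in DKO (1.01 ± 0.083, adjusted p = 3.45e-05) as well as in GKO (0.91 ± 0.083, adjusted p = 4.27e-05). Rgmb rose in DKO (0.59 ± 0.073, adjusted p = 0.000292), and hemojuvelin, listed as Hfe2, in GKO (0.69 ± 0.100, adjusted p = 0.000509). The BMP co-receptors Rgma and Rgmb rose in primed ESCs by 3.03 ± 0.104 and 2.45 ± 0.073.

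Of the 11 other Smads and Smad regulators, 3 rose and 2 fell in GKO (against 51.7% of all genes called), 4 fell in DKO (46.0%), and 7 rose and 4 fell in primed ESCs (80.0%), with Smad9 among those that fell. Ppm1a, a phosphatase of Smads, rose by 0.45 ± 0.043 in GKO (adjusted p = 5.66e-05), as did Tob1, which represses BMP-activated Smads (0.59 ± 0.126, adjusted p = 0.00401), and the ubiquitin ligases Smurf1 and Smurf2, which mark Smads for degradation, were lower in DKO (-0.39 ± 0.061 and -0.34 ± 0.073). Skil, a Smad corepressor, rose by 2.52 ± 0.071 in primed ESCs. Of the 17 antagonists, 9 were tested, and 5 of these (Chrd, Chrdl1, Nbl1, Dand5 and Bmper) passed the filter only through primed ESCs, so that their rise there was largely fixed by the filter and the antagonists are not counted for primed ESCs. Follistatin, Fst, above 1 TPM in every library, rose there by 2.22 ± 0.127, to 39.4 and 32.8 TPM. Bmper was at 8.42 and 5.98 TPM and chordin-like 1, Chrdl1, at 2.56 and 2.54 TPM in primed ESCs, and neither exceeded 0.086 TPM in the other lines. Fst fell in GKO from 7.08 and 6.74 TPM to 3.38 and 2.77 (-0.96 ± 0.127, adjusted p = 0.000302), and chordin, Chrd, rose there by 0.60 ± 0.143 (adjusted p = 0.00738), while below 1 TPM in both lines. In DKO 1 antagonist rose (Fstl1, 0.31 ± 0.083, adjusted p = 0.0148) and 1 fell (Twsg1, -0.21 ± 0.068, adjusted p = 0.0326). The Fstl1 call was lost without either library of naïve ESCs or DKO (adjusted p from 0.0505 to 0.0810), and the Twsg1 call without naïve replicate 1 or 2, DKO replicate 1 or either GKO library (adjusted p from 0.0504 to 0.203).

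Dusp9, a phosphatase of ERK that is induced by BMP in ESCs, went in opposite directions in the lines without Gys1. It stood at 21.6 and 21.2 TPM in naïve ESCs, 21.8 and 19.9 in AKO, 13.7 and 14.2 in DKO, 33.0 and 34.2 in GKO, against 8.56 and 11.2 in primed ESCs. Its order over the naïve, AKO, DKO and GKO lines was thus that of Id1 at both ends, with DKO lowest and GKO highest. The rise in GKO was 0.63 ± 0.101 (adjusted p = 0.000929), while in DKO it fell by 0.58 ± 0.101 (adjusted p = 0.00164), and in primed ESCs it fell by 1.05 ± 0.101 (adjusted p = 9.67e-06). Dusp9 lies on the X chromosome, whose 430 tested genes had a median difference, minus that of all other genes, of -0.26 in DKO, -0.047 in GKO and -0.24 in primed ESCs. The part of the chromosome in the Dusp9 differences was not tested. Of the 4 tested target genes, Dusp9 was the only call in GKO, and Hey1 (-0.41 ± 0.114, adjusted p = 0.0161) the other in DKO, lost without either library of naïve ESCs or DKO (adjusted p from 0.0603 to 0.0797). Hey1 passed the filter only through naïve ESCs, AKO and primed ESCs, so that its call in DKO was favoured by the filter. Msx2 fell in primed ESCs by 0.71 ± 0.109. Msx1 passed the filter only through primed ESCs, where it was at 2.57 and 1.28 TPM, against 0.902 TPM or less elsewhere.

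**Figure D4:**
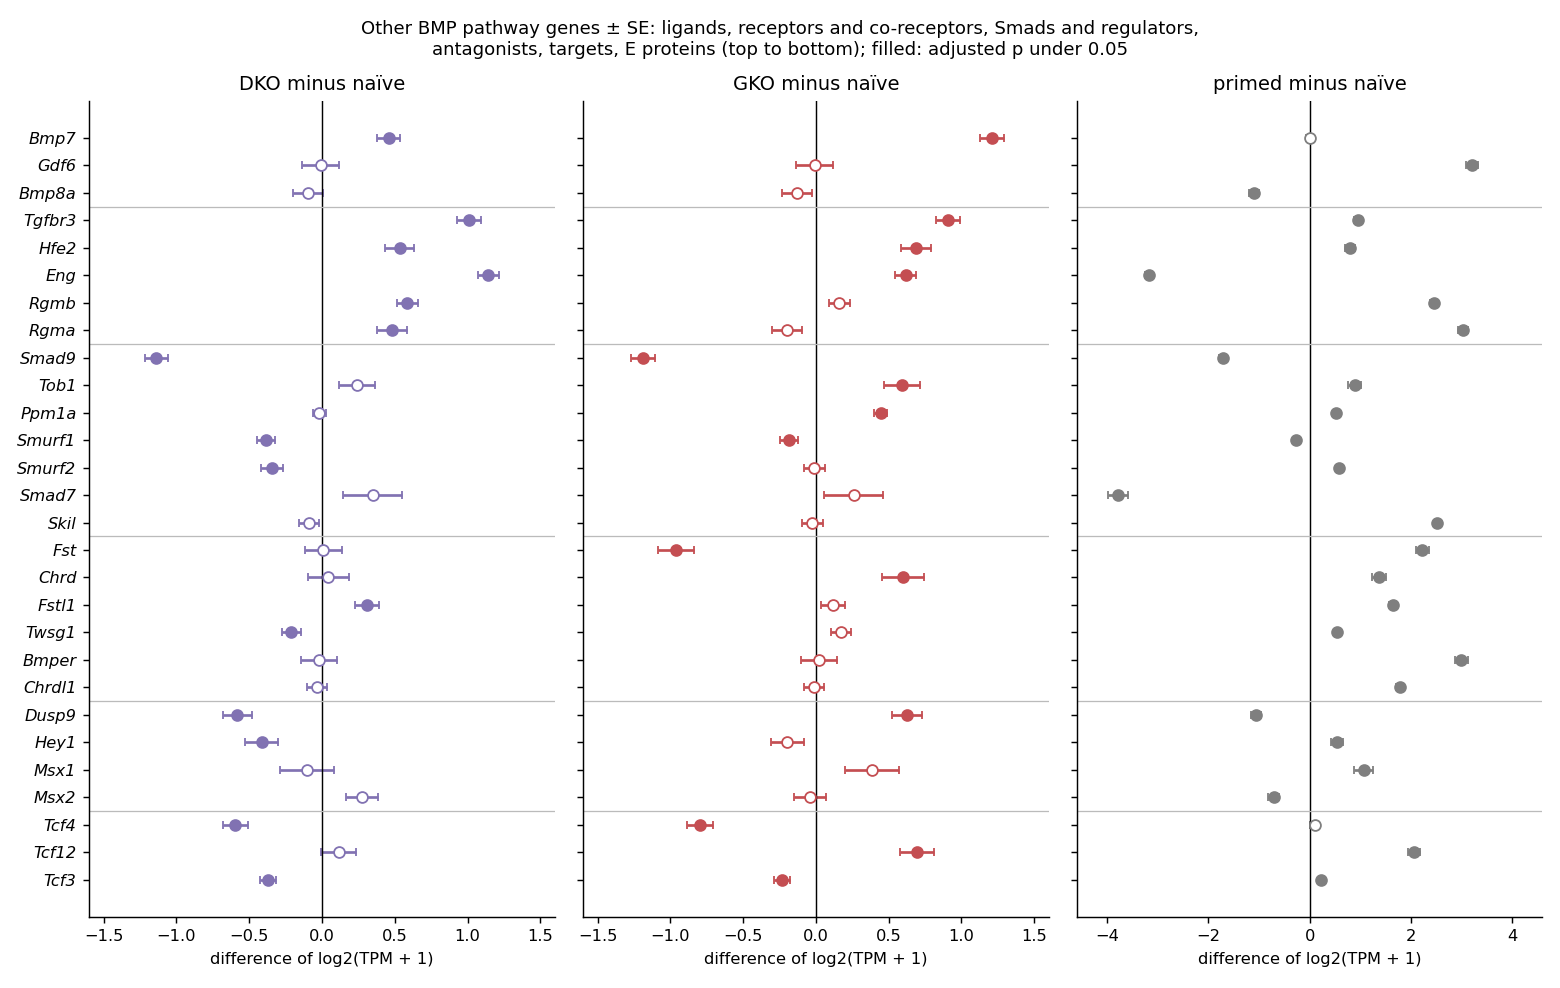
Difference from naïve ESCs (horizontal axes, log2(TPM + 1), ± SE) of 28 other genes of the pathway in DKO, GKO and primed ESCs, grouped by role from ligands at the top to E proteins at the bottom. Filled points have an adjusted p under 0.05, and Dusp9 lies at -0.58 in DKO and 0.63 in GKO.

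Markers of other cell types moved in some of these lines. The 6 trophectoderm markers summed to between 18.2 and 19.0 TPM in naïve ESCs, 27.1 and 29.5 in DKO and 46.9 and 48.4 in GKO, where all 4 that were tested rose, with Tfap2c at 23.2 and 24.3 TPM against 6.68 and 6.29. Of the other 2, which did not pass the filter, Gata3 was lower in GKO (0.048 and 0.101 TPM against 0.911 and 0.629 in naïve ESCs) and Elf5 was at 0.182 TPM or less in naïve ESCs, DKO and GKO. The 6 fibroblast markers summed to between 7.97 and 9.22 TPM in GKO against 2.88 and 3.46 in naïve ESCs, nearly all of it Thy1, with Lum and Dcn listed at 0 in GKO and primed ESCs. The 5 neural markers summed to between 7.01 and 7.21 TPM in GKO against 3.82 and 3.84 in naïve ESCs, and to between 72.1 and 81.2 in primed ESCs, led by Nes and Sox1. The 6 primitive endoderm markers stayed at or under 7.18 TPM in sum in every library. The 6 mesendoderm markers summed to between 38.9 and 40.0 TPM in naïve ESCs and 24.4 and 25.1 in DKO. The 8 primed pluripotency markers summed to between 93.5 and 93.7 in GKO against 66.1 and 68.7 in naïve ESCs. Of the 7 tested, 2 were called higher in GKO and 0 lower, beside 24.7% and 27.1% of all genes. In DKO the 8 summed to between 61.6 and 64.0 TPM, and 2 were called higher and 4 lower, beside 21.7% and 24.3% of all genes. The 12 naïve markers summed higher in both lines, to between 2017 and 2101 TPM in GKO and 2057 and 2067 in DKO, against 1830 and 1861 in naïve ESCs. Of these 12, 6 were called higher and 1 lower in GKO, beside 24.7% and 27.1% of all genes. The part of other cell types in the levels of the BMP genes was not tested.

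The genes whose pattern was most like that of a member are named by Pearson's r of log2(TPM + 1), as a description over libraries that share lines and with no test. Over all 10 libraries, Bmp4 was most like Gabarapl2 (r = 0.998), Id2 most like Med1 (r = 0.998), Id3 most like Ppp1r12c (r = 0.973), Id1 most like Triqk (r = 0.965) and Id4 most like Atp6v0d1 (r = 0.965). Over the 8 libraries without primed ESCs, Id1 was most like Upf1 (r = 0.989), with 74.2 and 73.6 TPM in naïve ESCs, 64.4 and 67.7 in DKO and 78.1 and 79.0 in GKO. Id2 was most like Irak2 (r = 0.996), Id3 most like Zbtb45 (r = 0.993), Id4 most like Fetub (r = 0.995) and Bmp4 most like Pygb (r = 0.979), a glycogen phosphorylase at 3.86 and 3.82 TPM in naïve ESCs, 3.03 and 2.96 in AKO and 5.55 and 5.11 in GKO. Among the members themselves, over the 8 libraries without primed ESCs, Id2 ran opposite to Bmpr1a (r = -0.98) and Smad6 (r = -0.98), and Id4 opposite to Smad1 (r = -0.99). Over all 10 libraries this did not hold for Id2, with r = 0.56 for Bmpr1a and -0.25 for Smad6, and Id4 with Smad1 had r = -0.69.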

How the data were processed

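RNA of 10 libraries from 5 mouse ESC lines was sequenced, and groups and replicate numbers were taken from the sample labels. The authors trimmed the reads with Trim Galore, aligned them with STAR and deposited TPM per protein-coding gene, estimated with RSEM 1.3.3. The labels list STAR 2.7.9a and the build GRCm38, while the study's methods give another STAR version and GRCm39, and the library kits differ between them as well, so that the build behind the values is not settled. The deposited values carry no counts, so that no depth, interval of counting or count model was used. Reads shared by similar transcripts were apportioned by RSEM, which bears on near-identical genes.

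From the deposited TPM, log2(TPM + 1) was tested with limma 3.58.1 in R 4.3.3, with an intensity trend, a mean for each line and Benjamini-Hochberg adjustment within a comparison, over 12060 of 21853 genes that reached 1 TPM in 2 or more libraries. The procedure was tested on simulated data. Named genes were the 10 members, up to 3 called genes with the largest change from each pathway list in GKO, DKO and primed ESCs, and the genes most like a member. For the file symbol of Hjv, Hfe2 was used. The members and lists were chosen with earlier results of these data known. Alternatives were a pseudocount of 0.1, no filter, a mean of at least 5 TPM, quantile normalization, median-ratio scaling, an equal sum over the listed genes, no trend, a replicate block, a fit of only the lines compared, no primed libraries, and each library left out. Promoter letters came from RefSeq windows of GRCm38.p6, and chromosomes from GENCODE on GRCm39.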

Additional observations from a re-analysis of the deposited data

Results flagged for a closer look

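GKO minus naïve (with AMPK) differed from DKO minus AKO (without it) for 12 of the 38 axis and pathway genes named above. The share was 31.6%, against 25.8% of all tested genes. Each of these 38 genes was tested with the interaction term of limma. The 28 of these that are no members were picked for large changes in GKO, DKO or primed ESCs, so that the share is a description. Among the members these were Smad5, by 0.50 on the log2 scale (adjusted p = 0.00532), and Bmpr1a, by 0.29 (adjusted p = 0.0333). Among the ligands and co-receptors these were Bmp7, by 0.79 (adjusted p = 0.00150), Rgma, by -0.62 (adjusted p = 0.0157), Rgmb, by -0.34 (adjusted p = 0.0419), and Eng, by -0.35 (adjusted p = 0.0341). Regulators of Smads were Ppm1a, by 0.64 (adjusted p = 0.000226), and Tob1, by 0.58 (adjusted p = 0.0434). The antagonists were Fst, by -0.94 (adjusted p = 0.00612), and Twsg1, by 0.36 (adjusted p = 0.0250). Dusp9 differed by 1.17 (adjusted p = 0.000729), and the E protein Tcf12 by 0.55 (adjusted p = 0.0427). The genes of the X chromosome, where Dusp9 lies, had a median interaction difference 0.15 above that of all other genes. Those of chromosome 14, where Bmpr1a lies, were 0.10 above. The part of the chromosomes in these differences was not tested. Smad5, Bmp7, Ppm1a, Fst and Dusp9 were called in every alternative run that tested them, and the other 7 were not. Bmp7 was tested in 19 of the 20 runs. It passed the filter only through DKO and GKO, so that its call was favoured by the filter. Leaving out any 1 library of naïve ESCs, AKO, DKO or GKO ended the call of Tob1, Tcf12 and Rgmb (adjusted p from 0.0548 to 0.144), and any of these but DKO replicate 1 that of Eng (0.0677 to 0.122). The Twsg1 call was lost without either naïve or GKO library, AKO replicate 1 or DKO replicate 1 (0.0614 to 0.0907), and that of Rgma without naïve replicate 2 (0.0611) or GKO replicate 1 (0.0543). The Bmpr1a call was lost without any of these libraries but DKO replicate 1 (0.0584 to 0.113). Each difference rests on 2 libraries of each of 4 lines.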

How the results depend on the processing

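Of the 70 differences of the 10 genes in 7 comparisons, 36 were called and 22 of these were called in every alternative run. In 6 differences the sign changed in some alternative, and 0 of these were called. Quantile normalization turned Bmpr2 in DKO against AKO to -0.057. With each library left out, the value of Bmpr2 in DKO against AKO ran from -0.034 to 0.050, and those in AKO against naïve ESCs ran from -0.12 to 0.065 for Smad6, -0.17 to 0.21 for Id2 and -0.26 to 0.0029 for Id3. Likewise Id3 in GKO against DKO ran from -0.16 to 0.033, and Id4 in primed ESCs from -0.64 to 0.069.

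The number of the 10 genes with an interaction of Gys1 and AMPK loss, 2 in the report, was 4 with an equal sum over the listed genes, and 6 with only the lines compared or without the primed libraries, and with each library left out from 1 to 6. Members called in AKO numbered 1 without the primed libraries. With each library left out, 0 to 1 were called in AKO, 4 to 9 in DKO, 4 to 9 in GKO, 3 to 6 between GKO and DKO, 5 to 7 between DKO and AKO and 8 to 9 in primed ESCs, where a line left with 1 library was assumed to vary like the others.

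Replicate numbers did not pair the libraries, with correlations of replicate deviations between lines from -0.13 to 0.08. With the replicate block 4 of the 10 genes were called for the interaction, Id1 and Id2 in addition (adjusted p = 0.0341 and 0.0190). In GKO the count stayed at 6, but Smad5 lost its call (0.0640) and Id1 gained one (0.0324). An equal sum over the listed genes moved the median of all genes in primed ESCs from -0.05 to 0.10 and the split of higher and lower calls among all genes from 2978 and 3263 to 3992 and 2097 in GKO, from 2616 and 2928 to 3107 and 2172 in DKO, from 4513 and 5130 to 5341 and 4020 in primed ESCs, from 2554 and 2698 to 2927 and 2043 between GKO and DKO, and from 2702 and 2885 to 3353 and 2017 between DKO and AKO. The cause of these changes was not tested, and with 2 libraries per line small differences of low genes such as Smad6 and Id4 stay uncertain.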
